A study of Mus musculus with 37 samples.

Results

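Hippocampal punches from 37 female CSS15F2 mice were ordered by the level of *Tnnt1*, *Tcf7l2* and *Prkcd*, genes that mark the thalamus lying just below the hippocampus, and the 12 hippocampi with the highest score were compared with the 12 with the lowest. The score of a hippocampus was the mean over the 3 genes of the z-score of the normalized log2 signal, and 13 of the 37 hippocampi fell between the groups. The study asked how genetic variation on chromosome 15 relates to hippocampal expression and to behavior in an unfamiliar environment. All mice came from 1 intercross in which chromosome 15 carries A/J and C57BL/6J alleles while the rest of the genome is C57BL/6J, all were female and 3 to 4 months old, and all were untreated apart from behavioral testing. The labels hold them as 1 group, and neither chromosome 15 genotype nor behavior of individual mice entered these comparisons. The high-score and low-score groups were therefore cut from measured values and are no treatment or genotype. Each value comes from several punches of frozen sections pooled within 1 mouse and measured on 1 Illumina BeadChip array.

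The thalamus relays sensory and motor signals to the cortex through glutamatergic projection neurons. In the mouse these relay neurons are set apart from hippocampal pyramidal neurons by transcription factors such as Gbx2, Shox2 and Tcf7l2 and by the vesicular glutamate transporter Vglut2 (*Slc17a6*), where the hippocampus mostly uses Vglut1 (*Slc17a7*). Tcf7l2 is a transcription factor that binds DNA at the end of the Wnt pathway, Tnnt1 is the troponin T of slow skeletal muscle, which is also transcribed in thalamic neurons, and Prkcd is a protein kinase C isoform. All arrays carried the RNA of the labelled tissue. The granule cell genes *Prox1* and *C1ql2* and the CA1 genes *Fibcd1* and *Wfs1* were detected on 37 of 37 arrays, and the CA3 genes *Iyd* and *Grik4* on 34 and 30. A probe counts as detected on an array when its deposited detection score exceeds 0.99.

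Apart from the score genes, 3 genes rose in the high-score hippocampi after adjustment over the 9809 probes tested, which is 0.0306% of them. They were *Rgs16*, *Shox2* and *Gbx2*, each on a list of relay neuron genes chosen with earlier results of these data known. Their start sites are shown with 300 bases each, because these are the genes on which the comparison turns and their windows differ in composition. The sequences are RefSeq promoter windows of build GRCm38.p6, 250 bases before to 50 bases after the annotated start, written in the direction of the gene. Capitals mark the core of the site that Tcf and Lef factors bind, CTTTGA or its reverse complement TCAAAG.
Gbx2, chr1:89931127-89931426, minus strand: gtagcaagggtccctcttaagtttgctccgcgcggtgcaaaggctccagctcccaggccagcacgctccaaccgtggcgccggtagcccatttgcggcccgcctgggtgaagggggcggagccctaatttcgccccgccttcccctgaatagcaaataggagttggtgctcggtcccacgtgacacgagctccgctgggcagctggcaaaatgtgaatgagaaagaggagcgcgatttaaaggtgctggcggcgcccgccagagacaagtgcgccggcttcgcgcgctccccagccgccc
Rgs16, chr1:153740103-153740402, plus strand: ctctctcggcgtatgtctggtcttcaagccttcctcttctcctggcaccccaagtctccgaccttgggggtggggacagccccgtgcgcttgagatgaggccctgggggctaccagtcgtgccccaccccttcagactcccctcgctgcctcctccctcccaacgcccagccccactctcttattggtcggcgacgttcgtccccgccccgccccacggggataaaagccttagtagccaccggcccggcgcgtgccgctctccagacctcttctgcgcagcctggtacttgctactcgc
Shox2, chr3:66981722-66982021, minus strand: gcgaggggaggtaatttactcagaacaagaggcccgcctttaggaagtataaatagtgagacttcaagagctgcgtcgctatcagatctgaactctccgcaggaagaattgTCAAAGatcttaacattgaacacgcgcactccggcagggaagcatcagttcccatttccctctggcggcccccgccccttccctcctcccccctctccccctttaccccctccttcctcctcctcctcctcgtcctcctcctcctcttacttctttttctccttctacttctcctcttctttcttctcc
The windows of *Gbx2* and *Rgs16* were rich in G and C, at 64.7% and 66%, and that of *Shox2* was at 53.3%, close to the median of 52.7% over all windows. Only the *Shox2* window held the 6-base core, once, at position 112 of the window. Of all 32851 windows, 16% held the core on either strand, and none of the 3 windows had been selected by its sequence. The match is a description of the letters and was not measured as a binding site.

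The score genes varied together. Over the 37 hippocampi, Pearson's *r* was 0.846 between *Tcf7l2* and *Tnnt1* (Spearman's rho 0.836), 0.826 between *Tnnt1* and *Prkcd* (rho 0.834) and 0.755 between *Tcf7l2* and *Prkcd* (rho 0.757), given without a test because these genes made the score. *Tnnt1* spread most, with an SD of 1.29 on the log2 scale over the 37 mice, followed by *Prkcd* with 1.17 and *Tcf7l2* with 0.70.

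In log2 signal, *Tnnt1* had a lowest, median and highest value of 8.83, 9.45 and 10.45 in the high-score hippocampi and of 5.48, 6.82 and 7.48 in the low-score hippocampi. *Prkcd* stood at 7.99, 8.69 and 9.72 in the high-score group and at 5.27, 6.16 and 7.10 in the low-score group. The narrowest separation was that of *Tcf7l2*, with 8.15, 8.74 and 9.86 against 7.05, 7.49 and 7.98. For each of the 3 genes every high-score value exceeded every low-score value. The group means differed by 2.80 for *Tnnt1*, 2.52 for *Prkcd* and 1.35 for *Tcf7l2* on the log2 scale, differences that the choice of the groups fixes and that were not tested. The *Prkcd* probe was not detected on 2 of the 12 low-score arrays, while the probes of *Tnnt1* and *Tcf7l2* were detected on all 37. A second *Tcf7l2* probe was detected on 0 arrays and did not enter the score.

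**Figure D1:**
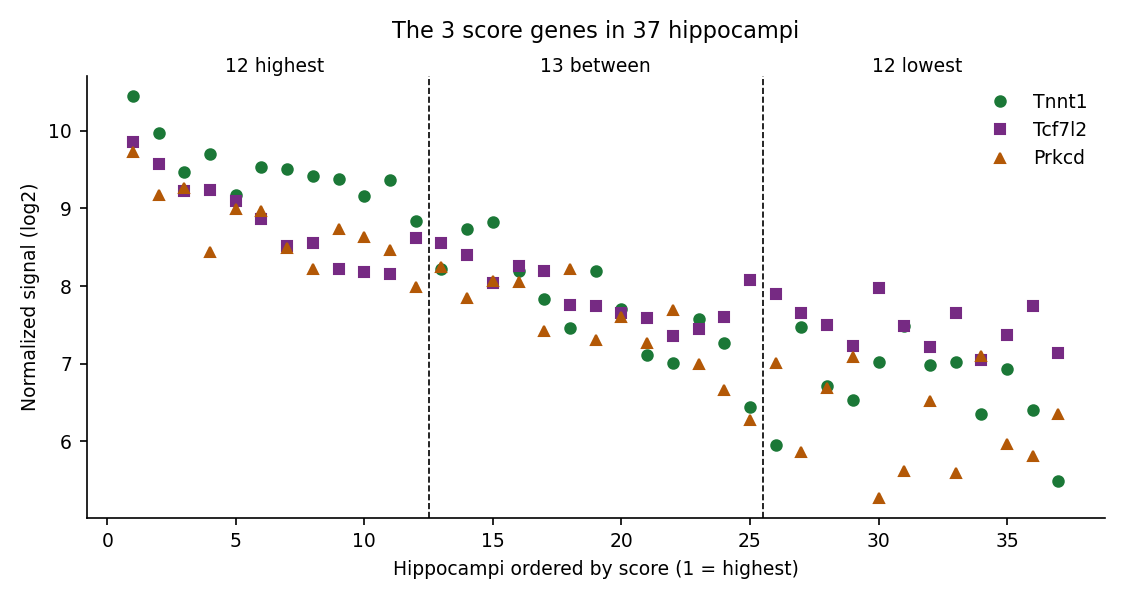
Normalized log2 signal of *Tnnt1*, *Tcf7l2* and *Prkcd* in each of the 37 hippocampi, ordered by score from the highest on the left, with dashed lines between the 12 highest, the 13 intermediate and the 12 lowest. All 3 genes decline along the order without a gap, with *Tnnt1* and *Prkcd* spanning a wider range than *Tcf7l2*.

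The order had no gap at either limit. The scores ran from 2.12 in mouse 129 to -1.42 in mouse 155. The last mouse in the high-score group, mouse 20, had a score of 0.623 and the first outside it, mouse 108, had 0.505. At the other end mouse 100, the last in the low-score group, had a score of -0.74506 and mouse 113, the first outside, -0.74501, so the lower limit separated mice of nearly equal score. With mouse 113 in place of mouse 100, *Rgs16*, *Shox2* and *Gbx2* kept their calls, with differences of 1.65, 1.57 and 1.70 on the log2 scale.

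Of 9809 probes tested with limma (two-sided, Benjamini-Hochberg adjusted *p* under 0.05), 3 were higher in the high-score hippocampi, which is 0.0306% of the probes, and 0 were lower, 0%. At an unadjusted *p* under 0.05 there were 110 higher (1.12%) and 181 lower (1.85%). The median difference over all probes was -0.02 on the log2 scale, with a 5th percentile of -0.42 and a 95th percentile of 0.34.

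*Rgs16*, a regulator that shortens signaling by G protein coupled receptors, ranked first. Its log2 signal ran from 7.20 through a median of 7.61 to 8.59 in the high-score hippocampi and from 5.22 through 6.12 to 7.11 in the low-score hippocampi. The groups did not overlap. The means were 7.81 ± 0.47 and 6.11 ± 0.59 (SD, n = 12 each), a difference of 1.70 ± 0.21 (SE) or 3.25-fold, with an adjusted *p* of 0.000229 in limma. The probe was detected on 12 of 12 high-score and 11 of 12 low-score arrays. The highest and lowest high-score values came from arrays with 6821 and 10374 detected probes (mice 31 and 115). In the low-score group they came from arrays with 6560 and 8467 (mice 101 and 77). Whether the *Rgs16* level follows array brightness was not tested. With the number of detected probes as a covariate the difference was 1.62 (adjusted *p* = 5.11e-05, limma).

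*Shox2*, a homeodomain transcription factor, was at the bottom of the measurable range in the low-score hippocampi. There 10 of 12 values sat at the floor of 4.00 (a signal of 16), the highest was 4.30, and the probe was detected on 0 arrays. In the high-score hippocampi the lowest, median and highest log2 signals were 4.05, 5.62 and 6.75, with detection on 8 of 12 arrays. Thus 11 of 12 high-score values lay above every low-score value. The fitted difference was 1.62 ± 0.21 (SE) on the log2 scale (adjusted *p* = 0.000238, limma), which depends on the floor. With each low-score value raised to the dimmest detected probe of its array, the means of *Shox2* differed 1.53-fold. The high-score values of mice 20, 86, 102 and 104 were not detected and entered as measured, so this is no strict lower bound. The probe entered the test with detection on 12 arrays in all, 8 high-score and 4 intermediate, just above the minimum of 10. The filter therefore favored a difference in this direction for *Shox2*, and with a minimum of 19 arrays it was not tested. A second *Shox2* probe did not reach the minimum.

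*Gbx2*, the homeobox gene that sets the identity of thalamic neurons during development, was the third called gene. Its lowest, median and highest log2 signals were 5.56, 7.24 and 7.71 in the high-score hippocampi against 4.03, 4.95 and 6.31 in the low-score hippocampi. Here the groups overlapped, with 9 of 12 high-score values above every low-score value. The highest and lowest high-score values came from arrays with 6821 and 10374 detected probes (mice 31 and 115). Those of the low-score group came from arrays with 6560 and 9916 (mice 101 and 38). Whether the *Gbx2* level follows array brightness was not tested. With the number of detected probes as a covariate the difference was 1.60 (adjusted *p* = 5.11e-05, limma). The means of 6.85 ± 0.73 and 5.07 ± 0.65 (SD, n = 12 each) differed by 1.78 ± 0.27 (SE), or 3.45-fold, with an adjusted *p* of 0.00197 in limma. The probe was detected on 12 of 12 high-score and 6 of 12 low-score arrays. In punched tissue, fewer relay neurons and less RNA per neuron cannot be told apart for this or any of the genes named here.

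**Figure D2:**
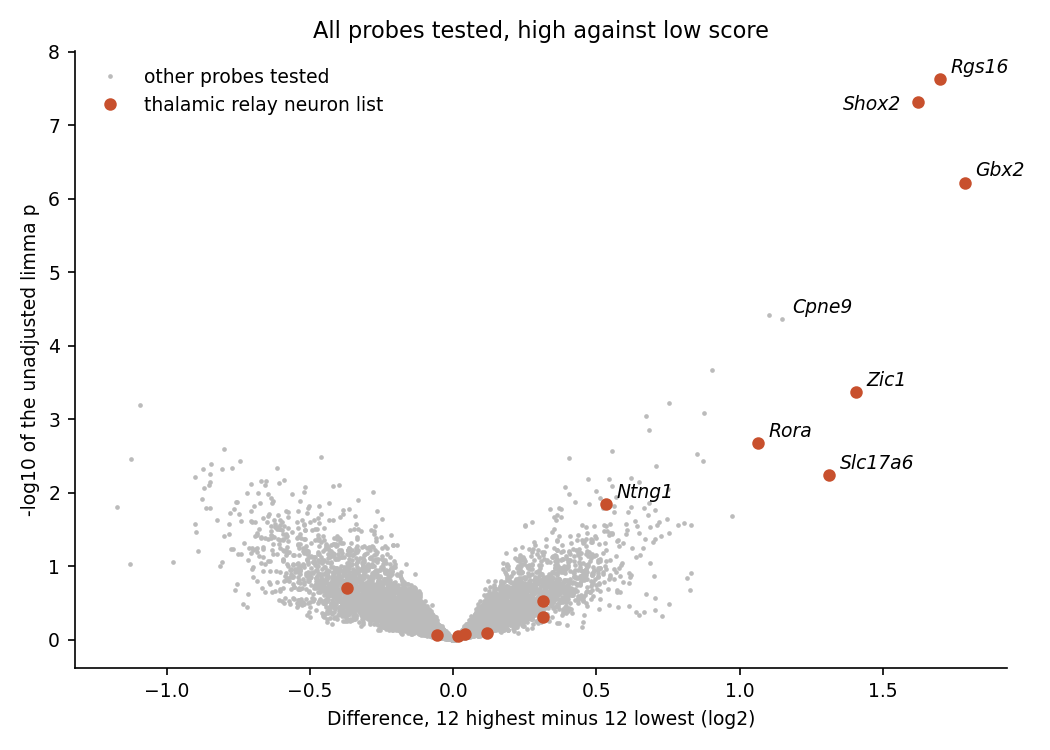
Log2 difference between the 12 highest and 12 lowest scores against -log10 of the unadjusted limma *p* for the 9809 probes tested, with the 14 probes of the relay neuron list in orange. *Rgs16*, *Shox2* and *Gbx2* stand apart at the upper right, and the next probes by *p* are the probe without a gene name and, beside it, *Cpne9*.

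The relay neuron list held 25 genes beside the score genes, of which 7 had no probe on the array by name (*Adarb1*, *Synpo2*, *Ramp3*, *Plekhg1*, *Amotl1*, *Ptpn3* and *Pdzrn3*), 6 had probes below the detection minimum (*Lef1*, *Zic4*, *Slitrk6*, *Rab37*, *Kitl* and *Lhx9*) and 12 were tested with 14 probes. Of the untested genes *Zic4* was detected on the most arrays, 8, among them 1 high-score and 3 low-score arrays. Of these 14 probes 3 rose, 0 fell, 7 were higher at an unadjusted *p* under 0.05 (against 1.12% of all probes), and 12 lay above 0, against 44.7% of all probes above 0. The median difference was 0.42 on the log2 scale, also with *Shox2* at its 1.53-fold difference, against -0.02 over all probes. The range reached from -0.37 for *Cbln1* to 1.78 for *Gbx2*. The list was chosen with earlier results of these data known, and the detection filter favored *Shox2*, so these shares are a description only.

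A group of transcription and wiring genes of the list differed only before adjustment. *Zic1*, a zinc finger transcription factor, had a lowest, median and highest log2 signal of 4.00, 6.80 and 7.66 in the high-score hippocampi and 4.00, 5.23 and 5.98 in the low-score hippocampi. Of its high-score values 10 of 12 exceeded every low-score value. The others, 4.00 in mouse 86 and 5.17 in mouse 20, were not detected. Their arrays had 5281 and 5631 detected probes, against a median of 8279 on high-score arrays. On the same arrays *Rgs16* stood at 7.88 and 7.54 and *Gbx2* at 7.46 and 7.41. Whether the *Zic1* level follows array brightness was not tested. The *Zic1* probe was detected on 10 of 12 high-score and 7 of 12 low-score arrays, with 1 and 2 values at the floor. The difference was 1.40 ± 0.35 (SE) with an unadjusted *p* of 0.000428 and an adjusted *p* of 0.600. Without mouse 86, a high-score mouse, it was 1.64 with an adjusted *p* of 0.0143. *Rora*, a nuclear receptor of relay neurons, ran from 6.83 through 7.32 to 9.17 against 4.96 through 6.84 to 7.72. The *Rora* groups overlapped widely, and the difference was 1.06 ± 0.31 (unadjusted *p* = 0.00214, adjusted *p* = 0.9995). *Ntng1*, which encodes netrin-G1 on thalamocortical axons, ran from 7.48 through 8.22 to 9.11 against 6.82 through 7.77 to 8.55, a difference of 0.53 ± 0.20 (unadjusted *p* = 0.0142).

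Of the vesicular glutamate transporters, that of relay neurons varied widely within groups. *Slc17a6* had a lowest, median and highest log2 signal of 8.54, 9.31 and 10.76 in the high-score hippocampi and 6.53, 7.67 and 10.90 in the low-score hippocampi. The single highest value belonged to a low-score mouse, while 7 of 12 low-score values lay below every high-score value. The difference was 1.31 ± 0.44 (unadjusted *p* = 0.0058, adjusted *p* = 0.9995). *Slc17a7*, the transporter of hippocampal pyramidal neurons, differed by 0.01 ± 0.25 with medians of 12.76 and 12.69.

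The other members of the list differed by less than their spread. *Calb2*, the calcium-binding protein calretinin, is found in midline thalamus and in hippocampal interneurons, and its probes gave differences of 0.32 ± 0.45 and 0.12 ± 0.47. *Vav3*, a guanine nucleotide exchange factor, differed by 0.31 ± 0.30. *Cplx1*, which encodes a presynaptic complexin and is abundant in both tissues, gave 0.02 ± 0.14. *Cacna1g*, the T-type calcium channel of burst firing, gave 0.04 ± 0.21 and -0.06 ± 0.34 on its probes. *Cbln1*, a synaptic organizer, was the lowest at -0.37 ± 0.28.

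**Figure D3:**
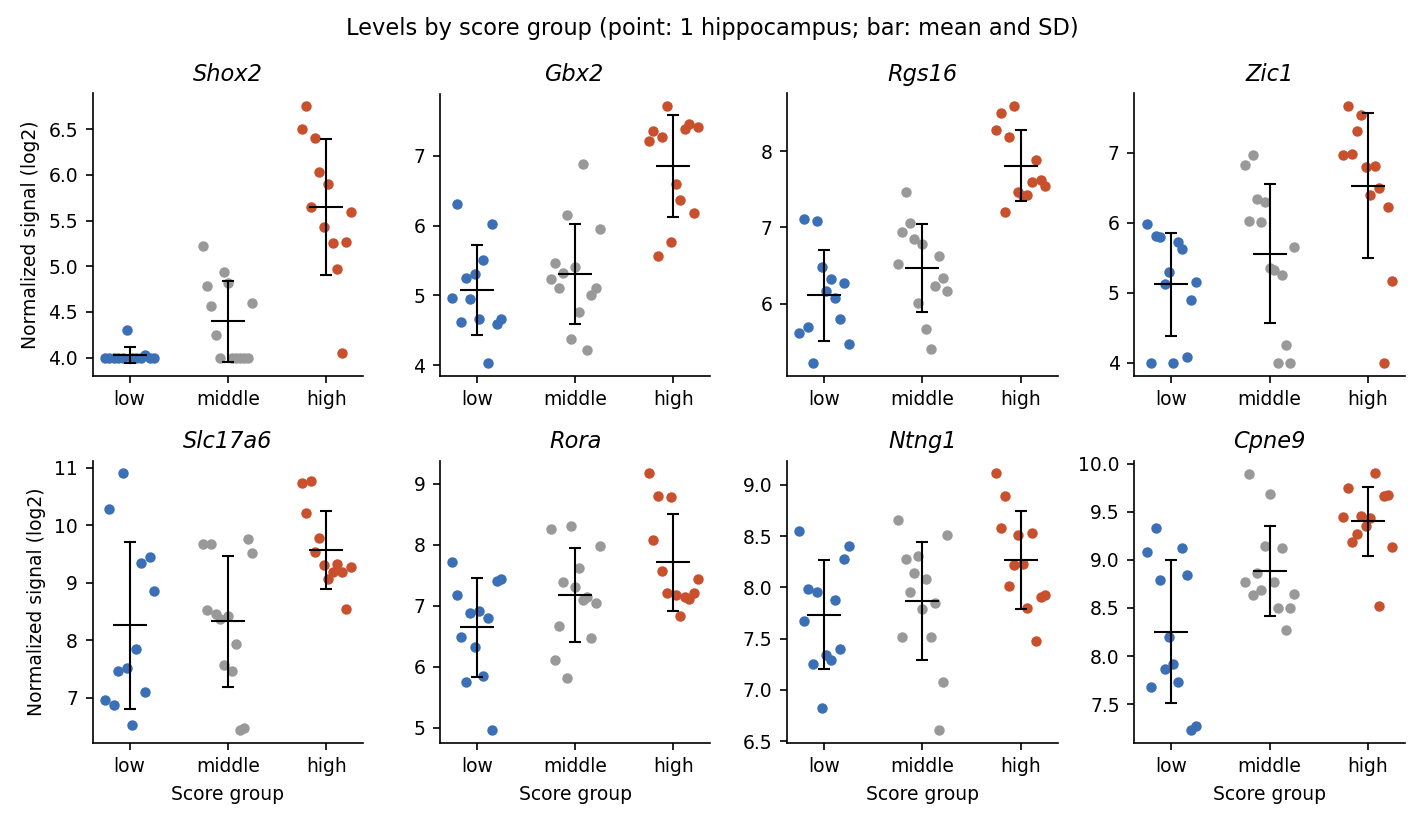
Normalized log2 signal of 8 genes in single hippocampi (points) of the low, intermediate and high score groups, with the mean and SD as black bars (n = 12, 13 and 12). *Rgs16* shows no overlap between low and high, *Shox2* lies at the floor of 4.00 in 10 of 12 low-score hippocampi, and *Slc17a6* overlaps over most of its range.

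The 13 intermediate hippocampi, which the contrast did not use, gave a second view with a narrower range of scores. Within them the slope of *Zic1* was 1.82 ± 0.38 (SE) log2 units per unit of score, that of *Rgs16* 0.80 ± 0.31 and that of *Shox2* 0.57 ± 0.26, with unadjusted *p* of 0.000242, 0.0216 and 0.045. *Gbx2* had a slope of -0.12 ± 0.45. Among these 13 arrays the *Shox2* probe was detected on 4 and the *Zic1* probe on 10. Both had lowest values at the floor of 4.00, so their slopes depend on the floor. Of the 14 relay probes 10 had slopes above 0, with a median slope of 0.30, against 49.7% of all probes above 0. Adjusted over all probes in limma, 0 slopes were called in these 13 arrays, those of *Zic1*, *Rgs16* and *Shox2* included.

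Outside the list, *Cpne9* and a probe without a gene name came closest to the threshold, and the genes of this paragraph were named after their values were seen. *Cpne9*, a copine that binds membranes in response to calcium, had a lowest, median and highest log2 signal of 8.52, 9.44 and 9.90 in the high-score hippocampi against 7.23, 8.06 and 9.33 in the low-score hippocampi. With a difference of 1.15 ± 0.23 its adjusted *p* was 0.0847, and it passed the threshold with mouse 113 in place of mouse 100 (adjusted *p* = 0.0447) and when mouse 38, 100, 104 or 152 was left out (adjusted *p* of 0.0233 to 0.048). A probe without a gene name differed by 1.10 ± 0.22, also with an adjusted *p* of 0.0847, and passed without mouse 101 (0.0332) or mouse 156 (0.0129). *Vash2*, which encodes a tubulin carboxypeptidase, differed by 0.90 ± 0.21, with an adjusted *p* of 0.351 that became 0.0493 without mouse 31, and *Syt9*, a synaptotagmin, by 0.75 ± 0.19 (adjusted *p* = 0.690). In the other direction *Gabarapl2*, of the autophagy protein family Atg8, gave -1.09 ± 0.28 with an adjusted *p* of 0.690, and its slope within the intermediate hippocampi had the opposite sign, at 1.60. The highest *Syt9* values, 7.80 in mouse 86 and 7.21 in mouse 20, came from arrays with 5281 and 5631 detected probes. On both arrays the probe without a gene name was not detected. Whether array brightness has a part in the differences of this paragraph was not tested.

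The neighboring habenula also expresses *Tcf7l2*, and its list was checked for that reason. The list held 13 genes, of which 11 had a probe on the array and only 4 were tested. *Gpr151* and *Pou4f1* were among those not tested, and *Tac1* is also in the interneuron list. The presence of habenular tissue was therefore not tested. Of its 5 probes tested, covering *Etv1*, *Nwd2*, *Tac1* and *Tac2*, 0 were called and 2 lay above 0, with a median difference of -0.01. The summed signal of the habenula list had a median of 473 in the high-score and 523 in the low-score hippocampi. The 2 probes of *Etv1*, a transcription factor of the Ets family, differed in sign, at -0.24 ± 0.22 and 0.28 ± 0.26. The channels of relay neuron firing, which include T-type calcium channels, HCN pacemaker channels and fast potassium channels, gave 0 calls among 10 probes with a median of -0.01, and its 4 brightest members, *Hcn2*, *Cacna1h*, *Kcnab2* and *Kcnc1*, differed by -0.16 ± 0.19, -0.13 ± 0.17, -0.07 ± 0.16 and 0.50 ± 0.32. At an unadjusted *p* under 0.05, 1 of the 10 channel probes was higher, that of the potassium channel *Kcnc2* (0.55 ± 0.23), and 1 was lower, that of *Kcnab3* (-0.58 ± 0.25), both named after their values were seen.

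Relatives of the score genes gave 0 calls. Among 27 probes of the Wnt pathway 0 were called and 11 lay above 0, with a median of -0.04. At an unadjusted *p* under 0.05, 3 of them were lower (against 1.85% of all probes) and 0 higher, the nuclear cofactor *Pygo1* at -0.52 ± 0.18, the ligand *Wnt7a* at -0.66 ± 0.30 and *Rspo2*, a secreted enhancer of Wnt signaling, at -0.60 ± 0.28. Among 6 probes of other protein kinase C isoforms 0 were called, with a median of -0.10, and *Prkcz* gave -0.16 ± 0.33. Among 12 probes of other troponins and tropomyosins 0 were called, with a median of 0.03, and *Tnnc1*, the troponin C of slow muscle, gave 0.23 ± 0.17.

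Within the hippocampal formation the subfield lists differed in sign before adjustment. All 5 tested probes of CA1 pyramidal neurons lay below 0, while 44.7% of all probes lay above 0. Their median was -0.52 and 3 were lower at an unadjusted *p* under 0.05 (against 1.85% of all probes), although 0 were called. *Wfs1*, which encodes a membrane protein of the endoplasmic reticulum, had means of 8.05 ± 0.81 and 8.90 ± 0.70 (SD, n = 12 each) and a difference of -0.85 ± 0.29. *Pou3f1*, a POU domain transcription factor, ran from 7.09 through 9.10 to 10.46 in the high-score hippocampi against 9.01 through 9.82 to 10.85, a difference of -0.76 ± 0.30. *Mpped1* gave -0.52 ± 0.22, *Spink8* -0.17 ± 0.47 and *Fibcd1* -0.11 ± 0.28. The high-score and low-score values overlapped for all 5, and the adjusted *p* was 0.9995 for each. Within the 13 intermediate hippocampi the 5 slopes were also below 0, with a median of -0.56 per unit of score. Over all probes, 49.7% of these slopes lay above 0.

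CA3 pyramidal neuron probes lay on the other side, with 7 of 7 above 0, a median of 0.31 and 0 called. These 7 probes cover 5 genes, and over all probes tested 44.7% lay above 0. In the intermediate hippocampi 5 of the 7 slopes lay above 0, against 49.7% of all probes. *Iyd*, an iodotyrosine deiodinase that marks CA3 in the mouse, ran from 6.36 through 7.08 to 7.51 against 4.61 through 6.16 to 7.54, a difference of 0.87 ± 0.27 (unadjusted *p* = 0.00366, adjusted *p* = 0.9995). *Homer3*, a postsynaptic scaffold, differed by 0.47 ± 0.27 and *Bok*, of the Bcl2 family, by 0.37 ± 0.25 on its brighter probe. Dentate granule cell probes had a median of 0.18 with 6 of 8 above 0, and *Prox1*, the transcription factor that keeps granule cell identity, gave 0.28 ± 0.17. Probes of the subiculum and cortex had a median of 0.00, with *Rprm* at -0.38 ± 0.15. Pyramidal genes shared by the telencephalon gave 3 of 16 above 0 with a median of -0.09, *Camk2a* at -0.14 ± 0.16 and *Nrgn* at -0.08 ± 0.18.

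The summed CA1 signal had a range of 3646 to 9623 (median 6919) in the high-score hippocampi and of 4143 to 14158 (median 8621) in the low-score hippocampi, and the summed CA3 signal 2144 to 5657 (median 3913) and 1301 to 5007 (median 3261). Both pairs of ranges overlapped widely.

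Glial, vascular and ventricular markers gave 0 calls in every list. The 16 myelin probes had a median of -0.08 with *Mbp*, myelin basic protein, at -0.13 ± 0.24. Astrocyte probes had a median of -0.10 and the diencephalic astrocyte genes one of 0.04, with the GABA transporter *Slc6a11* at 0.14 ± 0.18. The microglial and endothelial medians were -0.19 and -0.14, with 2 of 10 and 1 of 10 probes above 0 (against 44.7% of all probes). Oligodendrocyte precursors and mural cells had medians of -0.01 and 0.10, interneurons one of -0.05 and ependyma, over 4 probes, one of 0.26. The choroid plexus lies in the ventricles between hippocampus and thalamus. It had 10 of 10 probes, of 9 genes, above 0 (against 44.7% of all probes) and a median of 0.21. Its levels varied within groups far more than between them. *Ttr*, the thyroxine carrier made by the choroid plexus, spanned 5.35 to 14.31 with a median of 11.19 in the high-score hippocampi and 4.00 to 13.94 with a median of 10.25 in the low-score hippocampi, a difference of 0.73 ± 1.01. In the intermediate hippocampi 1 of 10 choroid plexus slopes lay above 0.

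General cell programs gave 0 calls as well. The 53 cytosolic ribosome probes had a median of 0.01 and the 72 oxidative phosphorylation probes one of 0.05, with 0 called in either, and 6 heat shock and 2 erythroid probes had medians of -0.08 and 0.13. Immediate early genes, which respond to recent neuronal activity, had 1 of 9 probes above 0 (against 44.7% of all probes). Their median was -0.28, and *Egr1* gave -0.39 ± 0.21. *Tomm22*, a receptor of mitochondrial protein import with a wide spread over these mice, differed by 0.40 ± 0.80.

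**Figure D4:**
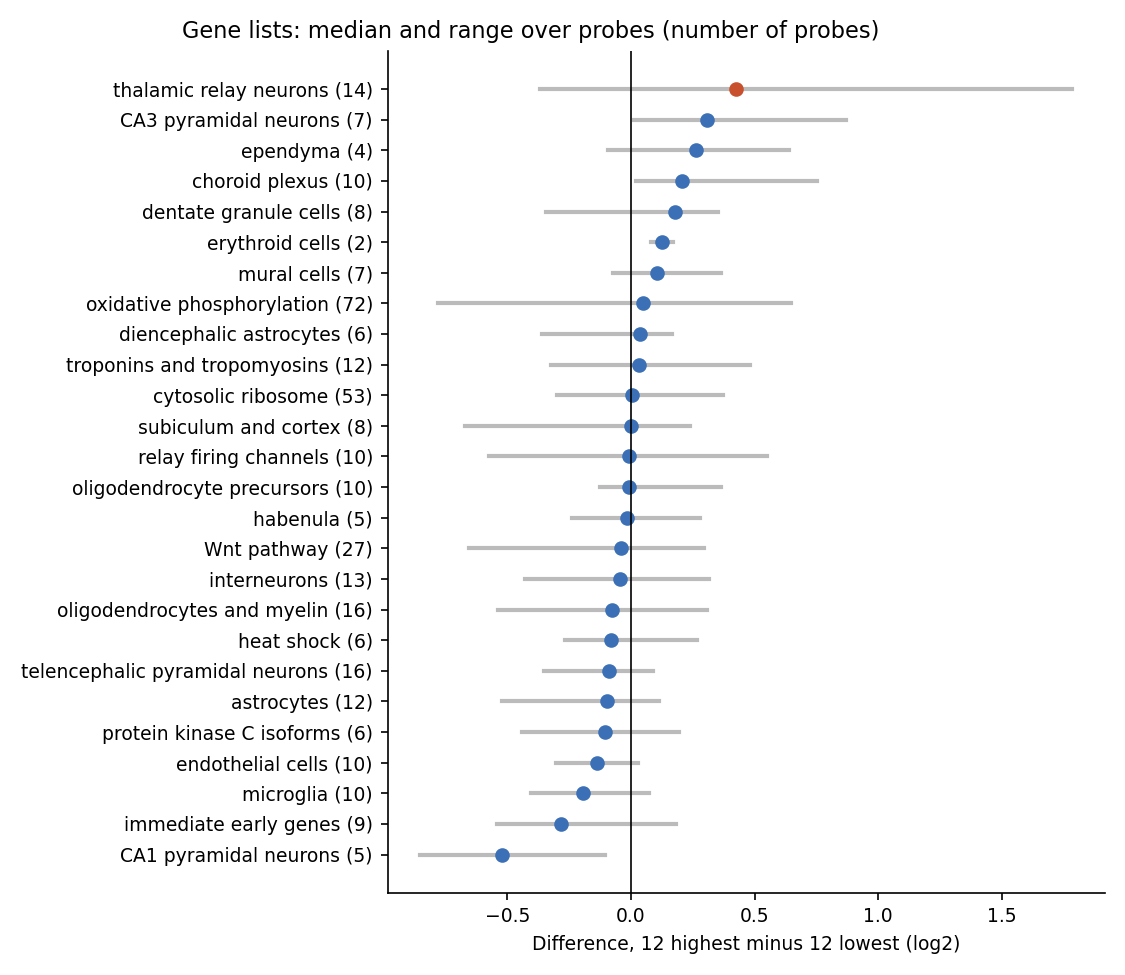
Median (point) and range (line) of the log2 difference between the 12 highest and 12 lowest scores over the tested probes of 26 gene lists, the number of probes in parentheses. The relay neuron list, in orange because it holds called probes, is at the top with a median of 0.42, and the CA1 list is at the bottom with -0.52.

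The segregating chromosome 15 held 386 of the tested probes, of which 0 were called in limma and 13 had an unadjusted *p* under 0.05 (3.37%, against 2.97% of all probes). *Rgs16* and *Gbx2* lie on chromosome 1 and *Shox2* on chromosome 3, which in this cross are C57BL/6J in every mouse.

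The number of detected probes differed between the groups by less than its spread. Detected probes ranged from 5281 to 10370 (mean 8070 ± 1497, SD, n = 12) on high-score arrays and from 6560 to 10640 (8589 ± 1289) on low-score arrays, with *p* = 0.37 in a two-sided permutation test and 0.37 after adjustment over 3 array measures. Over the 37 arrays the score and the detected probes gave *r* = -0.06 (permutation *p* = 0.72) and rho = -0.06 (*p* = 0.71), with adjusted *p* of 0.72 and 0.71 over the 3 measures, and *r* = -0.08 without the 2 arrays farthest from the median score. Within the 2 sets of BeadChips that their numbering forms, *r* was -0.21 over 26 arrays and 0.46 over 11. The other measures, the 95th percentile and the median of signal, gave *r* = -0.11 and -0.12 with the score over the 37 arrays (adjusted permutation *p* = 0.72 for both), -0.31 for both over the set of 26, and 0.59 and 0.69 over the set of 11. Whether array brightness has a part in the differences within the set of 11 was not tested.

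**Figure D5:**
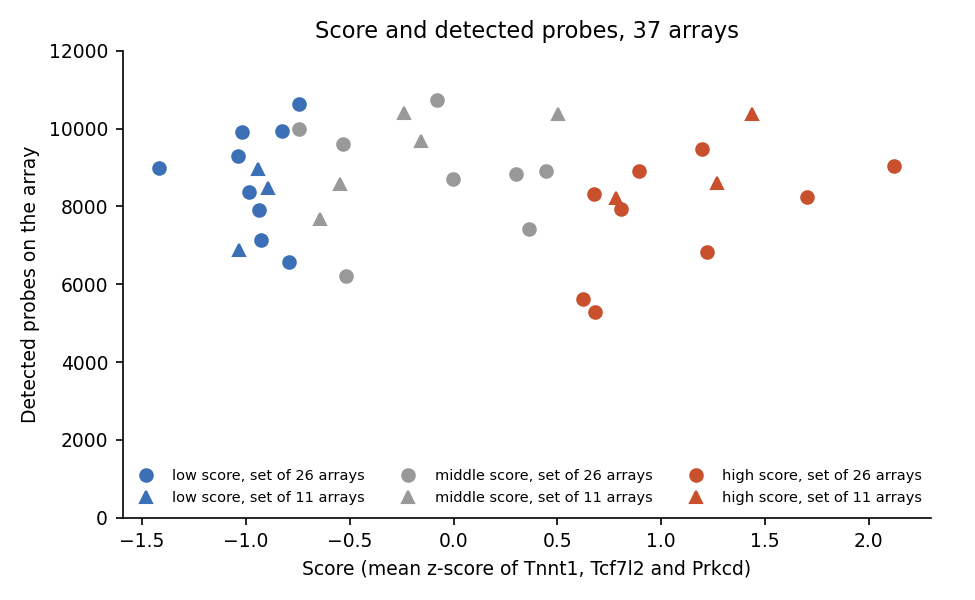
Number of detected probes on each of the 37 arrays against the score, colored by score group, with circles for the set of 26 arrays and triangles for the set of 11. High-score and low-score arrays cover similar ranges, 5281 to 10370 and 6560 to 10640.

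Both groups were spread over BeadChips, with 9 high-score and 9 low-score arrays in the larger set and 3 of each in the smaller. Of 13 BeadChips 7 carried both groups, and within them the difference in mean log2 signal was above 0 on 7 of 7 chips for *Rgs16* (0.94 to 2.61), *Shox2* (0.95 to 2.75), *Gbx2* (0.13 to 2.27), *Zic1* (0.12 to 3.22) and *Rora* (0.10 to 2.61), and on 6 of 7 for *Slc17a6* (-1.17 to 4.23). With the BeadChip as a fixed block, which left 12 residual degrees of freedom, *Shox2* and *Rgs16* differed by 1.53 and 1.56 (adjusted *p* = 0.155 for both) and *Gbx2* by 1.54 (0.356), so the sizes held and the calls did not. Within the set of 26 arrays the differences were 1.62 for *Rgs16*, 1.61 for *Shox2* and 1.90 for *Gbx2* (adjusted *p* = 0.0182 for each), and within the set of 11 arrays 1.93, 1.66 and 1.43 (adjusted *p* = 0.953). A test of the difference between the sets called 0 of the 9809 probes, with a smallest adjusted *p* of 0.862.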

How the data were processed

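Hippocampi of 37 mice were measured on Illumina MouseRef-8 arrays, 1 per mouse. Signal intensity was extracted and background corrected by the authors in BeadStudio and deposited without normalization between arrays, with a detection score per probe, as deposited, that is high where a probe exceeds the negative control beads. The authors also deposited log2 values, for which they had used lumi to stabilize the variance and then applied robust spline normalization, and these served as an alternative and to identify probes.

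The 37 signal columns were quantile normalized, floored at 16 because 30.8% of signals were below 0, and log2 transformed, so a value of 4.00 is the floor. The 24613 probes of the log2 table were paired one to one with 24613 of the 24620 in the signal table by their rank profile over the arrays, which linked them to the platform annotation. A single platform gene was given for 20984 probes, and 20968 symbols were updated by gene ID. Probes with a detection score over 0.99 on at least 10 arrays were tested, without those of the score genes, with limma 3.58.1 in R 4.3.3 (lmFit, eBayes), tested on simulated data. Array measures were compared by 100000 permutations. The detected probes per array and the number of arrays limit precision.

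Values between groups carry the spread over mice. Because the groups were cut on genes measured on the same arrays, the adjusted p-values describe association with the score over these mice. The members, gene lists and the rule for named genes were chosen with earlier results of these data known. The rule named the score genes, up to 15 called probes in each direction with a mean log2 signal of at least 6, all tested relay neuron genes, the 4 brightest tested members of each other list, *Ttr* and *Tomm22*. *Wfs1*, *Pygo1*, *Wnt7a*, *Rspo2*, *Kcnc2*, *Kcnab3* and the genes close to the threshold were named after their values were seen. Promoter windows came from RefSeq (GRCm38.p6) and matched 3 of 3 called genes. The alternatives covered normalization, background, floor, detection filter, BeadChip, group size, the genes in the score and each array left out, and 2 were chosen after seeing the data.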

Additional observations from a re-analysis of the deposited data

How the results depend on the processing

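The count of 3 probes higher in the high-score hippocampi became 0 among the 4582 probes detected on all 37 arrays, a filter that *Rgs16*, *Shox2* and *Gbx2* do not pass, 0 with BeadChip as a fixed block and 0 within the set of 11 arrays, and the 3 called probes of the relay neuron list became 0 under the same settings. It became 6 for a slope on the score over all 37 arrays, and 5 with *Prkcd* left out of the score, where 9 of 12 low-score mice stayed. Under every other alternative it was 2 to 4, with each array left out in turn 3 to 4, and 0 probes were lower under any alternative. *Rgs16* kept its call with each of the 24 arrays left out (differences 1.62 to 1.79) and in 20 of 22 other fits, *Shox2* (1.52 to 1.77) in 18 of 21 and *Gbx2* (1.69 to 1.90) in 17 of 22. *Shox2* lost its call with the floor at 32 (0.73, adjusted *p* = 0.252). *Gbx2* lost it with 18 against 18 mice (1.18, adjusted *p* = 0.292), without *Tcf7l2* in the score (1.54, adjusted *p* = 0.0776) and with groups cut on the authors' normalized values (0.43, adjusted *p* = 0.292). *Zic1* passed the threshold under 7 alternatives, among them no quantile normalization (1.42, adjusted *p* = 0.000735). With mouse 113 in place of mouse 100, chosen after seeing the data, *Cpne9* was called as well. The cause of these changes was not tested, apart from probes that a filter removed. Of 121 probes followed, 0 reversed while called. Over 22 alternatives the median of the relay neuron list ranged from 0.24 to 0.97, that of CA1 from -0.74 to -0.07 and that of CA3 from 0.00 to 0.47. The first principal component of the arrays, with 46.3% of the variance, correlated with the number of detected probes (*r* of 0.91 in size) and not with the score (0.03). No paired analysis was possible because the labels give no replicate number shared by high-score and low-score mice, and the BeadChip was the only block fitted. Dim probes such as that of *Shox2*, near the background of most arrays, have only bounds in the low-score hippocampi.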
